A study of Mus musculus with 12 samples.

Results

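miRNAs with numbers of 1000 and above were examined in the hippocampus of wt and P2rx7-/- mice. They were chosen by name alone: every TaqMan OpenArray assay without the # mark of a passenger strand whose miRNA number was 1000 or higher, except miR-1193 and miR-1197. This gave 60 of 619 miRNA assays, all carrying the mouse prefix mmu, and they were set beside the 461 other assays without a # mark. The P2X7 receptor is an ATP-gated ion channel of the brain's inflammatory response, and the study asked how its absence alters miRNA expression before and after status epilepticus. The 12 samples formed 4 groups of 3, namely controls and mice after status epilepticus (post-SE) of each genotype. All mice were male C57BL/6, 8 weeks old by the labels and 8 to 12 weeks by the paper. The paper gives a substrain for the P2rx7-/- line only. Control mice received vehicle into the amygdala and post-SE mice kainic acid (KA), a glutamate agonist that triggers status epilepticus, and according to the methods every group was given the anticonvulsant lorazepam. The ipsilateral hippocampus was taken 8 h after the injection. Each sample was 1 μg of RNA from a pool of 2 hippocampi of different mice, so that a sample averages animals, and in such bulk tissue fewer cells of a type and less miRNA per cell cannot be told apart. The P2rx7-/- line lacks the receptor in all cells, and as only small RNAs were assayed the genotype labels could not be checked from these data.

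A mature miRNA guides the Argonaute complex to mRNAs, chiefly through its seed, the bases after the first at its 5′ end. miRNAs are numbered in the order in which they were registered, so that high numbers mark late entries, many of them found by deep sequencing of small RNA. Such miRNAs are often young in evolution, of low abundance or made from introns of other genes, and little is known of their targets in the hippocampus.

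Of the 60 assays, 24 matched an entry of the RefSeq mouse annotation (GRCm38.p6) by name, 1 matched by the symbol of its hairpin, and 10 matched a miRNA whose arms are both listed, without the arm being given in the assay name. The other 25 had no entry. Among these, miR-1274A, miR-1839-3P, miR-1949, miR-1982.1, miR-2135, miR-2138, miR-2146 and miR-2182 had a Ct in all samples. In the sequences below, given 5′ to 3′, capitals mark the seed, bases 2 to 8. The first set shows miRNAs with an entry and a Ct in all samples that are named in the comparisons between groups. To these is added miR-1839-5p, the other arm of miR-1839-3P. Members without an entry are not shown, although several of them are named in the comparisons. Where the arm was not given, both are shown.
miR-1188-5p: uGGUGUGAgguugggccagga
miR-1188-3p: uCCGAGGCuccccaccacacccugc
miR-1191a: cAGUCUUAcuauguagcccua
miR-1306-5p: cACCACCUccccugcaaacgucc
miR-1306-3p: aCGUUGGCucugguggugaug
miR-1839-5p: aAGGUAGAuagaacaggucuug
miR-1932: gUUGCGGAcagcgcuaggucgg
miR-1954: aCUGCAGAgugagacccuguu

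The arms of miR-1188 lie at chr12:109611841-109611861 and chr12:109611877-109611901 on the plus strand, within Rian, a maternally expressed long noncoding RNA of an imprinted domain. The arms of miR-1306 lie at chr16:18284288-18284310 and chr16:18284248-18284268 on the minus strand, within Dgcr8, which encodes the RNA-binding partner of Drosha in miRNA processing. miR-1191a (chr7:27205615-27205635, plus strand) lies within BC024978, miR-1839-5p (chr7:81529919-81529940, plus strand) within the noncoding 2900076A07Rik, miR-1932 (chr11:119390524-119390545, plus strand) within Rnf213, a ubiquitin ligase gene, and miR-1954 (chr2:32652342-32652362, plus strand) within Eng, the gene of the endothelial receptor endoglin. Of the 35 members with an entry, 31 had a locus inside the span of another gene, 27 of them inside a protein-coding gene. The gene table gives whole gene spans without strand, so exons, introns and the strand of the gene were not told apart here. A miRNA said below to be from a gene lies within its span, and its transcription from that gene was not tested.

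Among the 35 members with a sequence no 2 shared a seed, but a few had the seed of well-known families, and the next set shows the clearest of these beside their relatives.
miR-1961: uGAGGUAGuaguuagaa
let-7a-5p: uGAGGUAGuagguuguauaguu
miR-1928: aGCUACAUugccagcuc
miR-221-3p: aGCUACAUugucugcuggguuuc

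miR-1961 (chr5:92788465-92788481, minus strand, within Shroom3) is listed with 17 bases, the first 11 of which are those of let-7a-5p (chr13:48538239-48538260, minus strand, 1 of its loci), a member of the large let-7 family that restrains growth genes. The assay for miR-1961 gave a Ct, the PCR cycle at which the product crosses the detection threshold and therefore lower for more miRNA, in only 5 of 12 samples, between 17.9 and 25.8. The 9 assays for let-7 members and miR-98, which share this seed, gave a Ct in 10 to 12 samples. miR-1928 (chr1:74206562-74206578, minus strand) is also listed with 17 bases and shares its first 10 with miR-221-3p (chrX:19146307-19146329, minus strand). Its Ct lay between 19.8 and 24.9 in 11 samples, whereas miR-221 was read at 12.5 to 15.7 in all 12. The assay for miR-222, whose 3p arm has the same seed, was read in only 2 samples, at 10.2 and 26.5.

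The members were detected less often than the other miRNAs, and unevenly among themselves. A Ct was listed in all 12 samples for 18 of the 60 members (30%), in 11 samples for another 11, in 3 to 10 samples for 22 and in 1 or 2 samples for 9. Of the 461 assays with lower numbers, 252 (54.7%) had a Ct in all samples, and of the 195 among them with the mouse prefix 94 (48.2%) did. Readings with a Ct amounted to 503 of 720 (69.9%) for the members and 82.7% for the others. The difference had the same direction in 12 of 12 samples: 58.3% to 80.0% of the members had a Ct, depending on the sample, against 77.0% to 87.2% of the others. The table lists only assays read in at least 1 sample, and these shares therefore leave out any assay that gave no Ct at all.

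**Figure D1:**
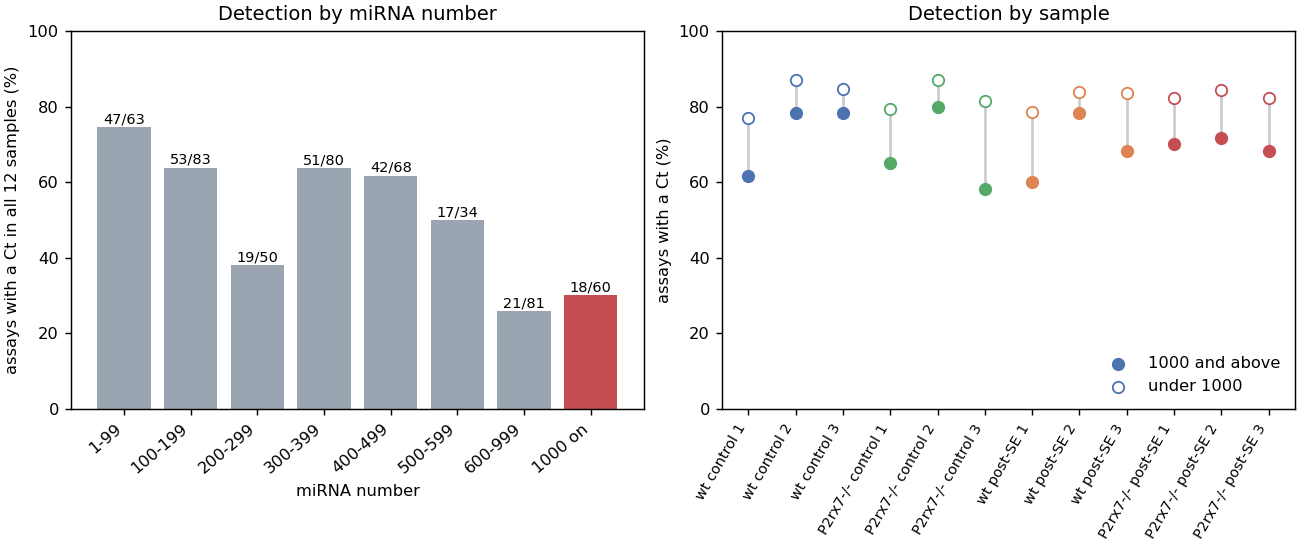
Left, the percentage of assays with a Ct in all 12 samples by miRNA number, with counts above the bars; the assays from 1000 on (red, 18 of 60) stand beside those numbered from 600 to below 1000 (21 of 81). Right, the percentage of assays with a Ct in each sample for numbers of 1000 and above (filled) and under 1000 (open), colored by group; the filled point is the lower one in all 12 samples.

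Low detection was not particular to numbers of 1000 and above, since of the 81 assays numbered from 600 to below 1000 only 21 (25.9%) had a Ct in all samples, against 47 of 63 (74.6%) of those numbered below 100. Within the members, miR-1274A and miR-1306, the only ones numbered from 1200 to below 1800, and 4 of 6 in the 2100s were read in every sample. This held for 3 of 7 below 1200, 2 of 8 in the 1800s and 7 of 37 in the 1900s. By group, the share of members with a Ct was 72.8% ± 9.62 (SD, n = 3) for wt controls, 67.8% ± 11.1 for P2rx7-/- controls, 68.9% ± 9.18 for wt mice after SE and 70.0% ± 1.67 for P2rx7-/- mice after SE. The samples overlapped between all groups.

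**Figure D2:**
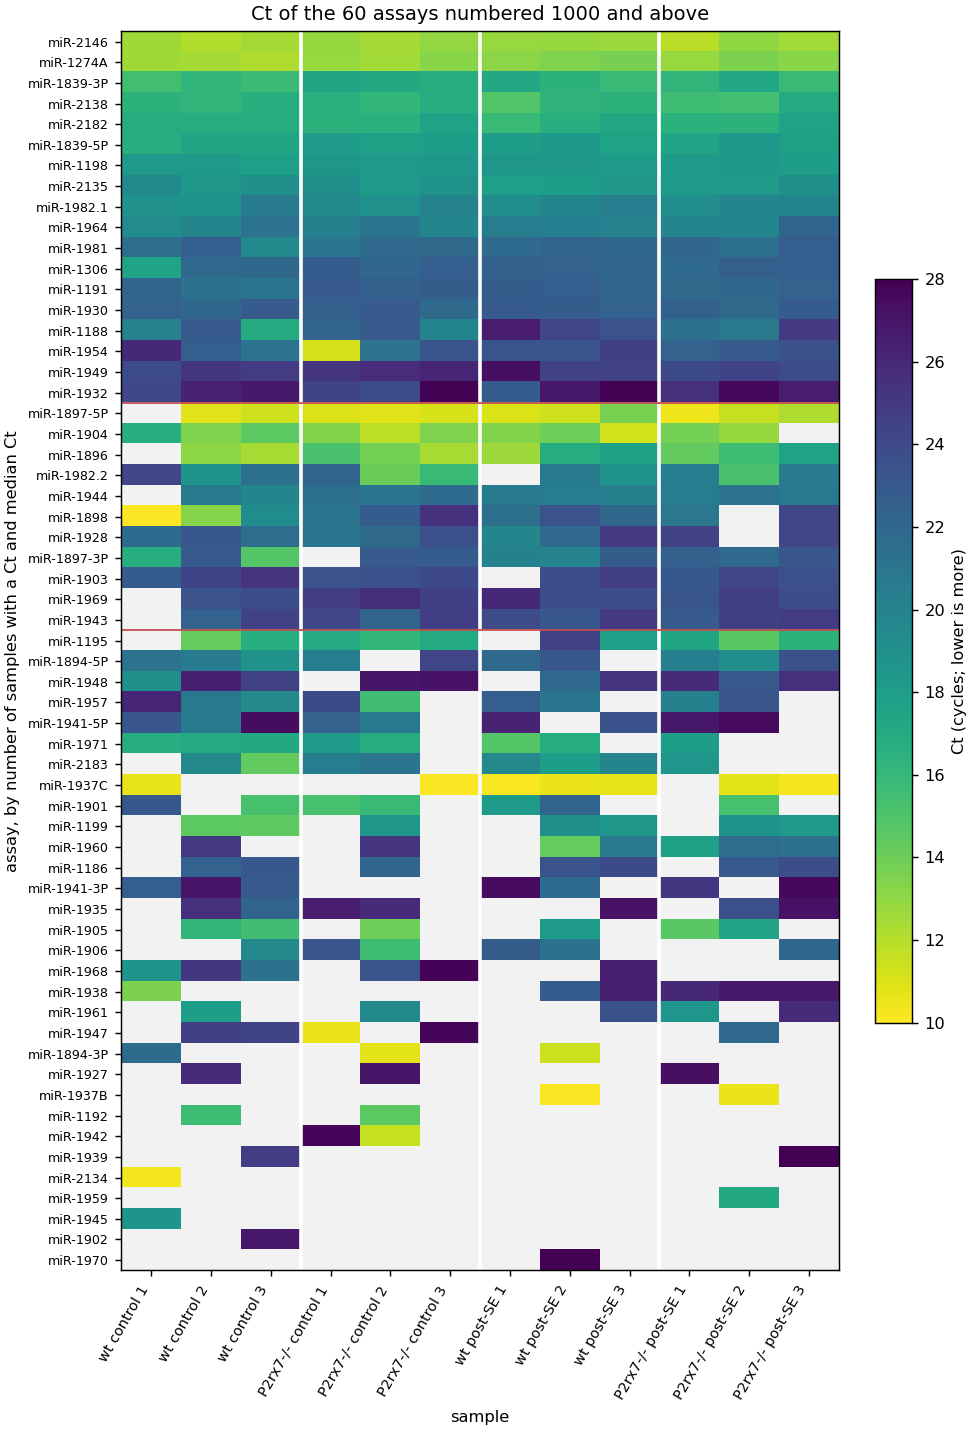
Ct of each of the 60 members (rows, ordered by the number of samples with a Ct and the median Ct) in the 12 samples (columns); yellow is a low Ct, dark blue a high one and grey no Ct. Red lines separate the 18 members read in all samples, the 11 read in 11 samples and the 31 read in fewer.

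An absent Ct did not always go with a high one. The listed values ran from 10.004 to 27.999 cycles, and some members sat at the lower end: miR-1937C had a Ct in 7 samples, all between 10.1 and 10.8, miR-1937B in 2 samples at 10.1 and 10.5, and miR-2134 in wt control replicate 1 alone at 10.3. The neuronal miR-9 was likewise read in only 4 of 12 samples, at 10.1 to 12.3. Whether their empty wells stand for a Ct below 10 was not tested. Of the neuronal markers of the tissue, miR-128a was read in all samples (12.9 to 14.9), miR-124a in 11 (13.7 to 15.6) and miR-138 in 10 (10.1 to 24.0). Markers of other tissues were not uniformly low. The muscle miRNAs miR-133a and miR-206 were read in all samples with median Ct values of 16.1 and 22.7, miR-1 in 11 (21.7) and the cardiac miR-208b in 1. miR-375 of pancreas and pituitary was read in all samples (18.8) and the liver miRNA miR-122 in 11 (24.1). The part of such RNA in the levels of the members was not tested.

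The 9 members read in 1 or 2 samples were miR-1192, miR-1902, miR-1937B, miR-1939, miR-1942, miR-1945, miR-1959, miR-1970 and miR-2134. Among the 11 read in 11 samples, wt control replicate 1 alone lacked a Ct for miR-1896, miR-1897-5P, miR-1943, miR-1944 and miR-1969. Of these miRNAs, miR-1944 (19.8 to 21.7), miR-1943 (22.3 to 24.9) and miR-1969 (23.2 to 25.9) stayed within 3 cycles, miR-1897-5P lay at 10.4 to 13.6, and miR-1896 ranged from 12.3 to 17.7. wt post-SE replicate 1 alone lacked miR-1903 (22.8 to 25.3 elsewhere) and miR-1982.2 (14.1 to 24.2), and P2rx7-/- control replicate 1 alone lacked miR-1897-3P (14.8 to 23.2). P2rx7-/- post-SE replicate 2 alone lacked miR-1898 (10.1 to 25.5) and miR-1928, and P2rx7-/- post-SE replicate 3 alone lacked miR-1904 (11.2 to 16.6).

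For a pair of members the number of samples with a Ct differed most between controls and mice after status epilepticus. They are shown because of that difference, which is a description with no test.
miR-1938: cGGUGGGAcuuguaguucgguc
miR-1968-5p: uGCAGCUGuuaaggaugguggacu
miR-1968-3p: aCCACCUCugcagcuguuaag

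miR-1938 (chr12:40222782-40222803, minus strand, within Ifrd1) was read in 5 of 6 post-SE samples, at 22.7 and 26.4 in wt and at 26.01, 26.8 and 26.8 in P2rx7-/- mice. Of the 6 control samples it was read only in wt control replicate 1, at 13.5, against a median of 26.2 over the 6 samples. It was the only assay with a Ct in at least 4 more post-SE than control samples (0.162% of the 619). miR-1968 (within Grtp1, arms at chr8:13189068-13189091 and chr8:13189035-13189055, minus strand) went the other way. It was read at 18.7, 25.1 and 21.2 in wt control, at 23.3 and 27.8 in P2rx7-/- control and at 26.5 in 1 wt post-SE sample, and in no P2rx7-/- post-SE sample. It was 1 of 4 assays (0.646%) with a Ct in at least 4 more control than post-SE samples. Between genotypes no member differed by that much, where 0.323% of all assays were read in at least 4 more P2rx7-/- samples and 0.162% in at least 4 more wt samples. All but 1 of the post-SE readings of miR-1938 lay above 26 cycles, near the highest listed Ct.

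The Ct of the members also varied more from sample to sample. Among assays with a Ct in at least 6 samples, 22 of 47 members (46.8%) spanned over 5 cycles, against 104 of 395 others (26.3%), and the median span was 4.60 cycles for members and 3.00 for others. Readings over 5 cycles below the assay's own median made up 15 of 474 (3.16%) for the members and 48 of 4440 (1.08%) for the others. Of these 15, 5 were in wt control replicate 1, 3 each in wt control replicate 3 and P2rx7-/- control replicate 2, and none in 5 of the 12 samples. wt control replicate 1 stood apart as a whole: its Ct values ranked the miRNAs unlike the other samples (Spearman correlations of 0.660 to 0.737 across assays, against values up to 0.989 elsewhere) and 72 of 335 assays were over 2 cycles off the median of the other samples. The part of this sample in the differences between groups is given below by leaving it out. The table holds 1 reading of a member in a sample, and therefore no technical error of a member's single Ct. The plant miRNA ath-miR159a, the negative control of the paper, gave a Ct in 2 of 24 readings, at 13.5 and 23.9. Whether single readings of members are of the same kind was not tested.

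Pairs of assays from 1 hairpin by their names gave stable and unstable contrasts. The miR-1839-3P assay had a lower Ct than miR-1839-5P in 12 of 12 samples (3P minus 5P, -1.97 to -0.74 cycles). For the arms of miR-1897, from a hairpin within Sox2ot, a noncoding transcript that overlaps Sox2, the 3P assay had the higher Ct in 10 of 10 samples with both, by 3.56 to 12.1 cycles. miR-1982.1 and miR-1982.2, whose names give no arm, differed by -4.84 to 5.27 cycles, with miR-1982.2 higher in 6 of 11 samples. The arms of miR-1941 were read together in 5 samples and differed by -4.59 to 6.47 cycles. A difference in Ct between assays also depends on how well each assay amplifies its target.

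For the 18 members with a Ct in all samples, levels are given as -ΔCt, which is the Ct of the assay subtracted from the average of that sample across the 335 miRNA assays read in all samples, a log2 scale on which 0 is the sample's mean. These 18 passed a filter that asks for a Ct in every sample, so that what follows does not speak for the other 42. Of the 18, 3 lay in the highest 25% of the 335 assays by mean level and 8 in the lowest 25%. The median of their mean levels was -1.04, against -0.05 for the other 317. Their median SD within groups was 0.731, near the 0.625 of the others.

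miR-2146 had a mean level of 6.30, rank 9 of the 335, and lay at 6.51, 6.48 and 5.84 in wt controls, 6.33, 6.54 and 6.21 in P2rx7-/- controls, 6.50, 6.06 and 5.89 after SE in wt and 6.60, 6.09 and 6.60 after SE in P2rx7-/- mice. miR-1274A, a name given to RNA that overlaps the end of a lysine tRNA, lay at 6.47, 6.12 and 6.10 in wt controls, 6.41, 6.42 and 5.96 in P2rx7-/- controls, 6.11, 5.42 and 4.92 after SE in wt and 5.70, 5.51 and 5.87 after SE in P2rx7-/- mice (rank 13). These were the members with the highest levels, and neither had an entry in the RefSeq annotation. For miR-1274A the 3 P2rx7-/- post-SE samples lay below all 3 P2rx7-/- controls, whereas the wt groups overlapped.

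miR-1839-3P lay at 3.58, 2.38 and 2.50 in wt controls, 1.81, 1.88 and 2.36 in P2rx7-/- controls, 2.15, 2.47 and 2.76 after SE in wt and 2.30, 1.85 and 3.27 after SE in P2rx7-/- mice. miR-1839-5P lay at 2.27, 1.21 and 0.85 in wt controls, 1.04, 1.14 and 1.20 in P2rx7-/- controls, 1.25, 0.51 and 1.08 after SE in wt and 1.01, 0.66 and 1.34 after SE in P2rx7-/- mice. Both arms were highest in wt control replicate 1. miR-1198, from the gene of the endosomal protein Gripap1, had the narrowest span of Ct among the 18, 0.646 cycles over the 12 samples. It lay at 0.69, 0.28 and 0.39 in wt controls, 0.66, 0.64 and 0.75 in P2rx7-/- controls, 0.80, 0.43 and 0.54 after SE in wt and 0.40, 0.69 and 1.12 after SE in P2rx7-/- mice.

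Of the members in the 2100s, miR-2135 lay at -0.39, 0.09 and -0.69 in wt controls, 0.15, 0.74 and 0.30 in P2rx7-/- controls, 1.44, 0.91 and 0.17 after SE in wt and 0.33, 0.76 and 0.08 after SE in P2rx7-/- mice. miR-2138 lay at 2.64, 2.34 and 1.63 in wt controls, 2.69, 2.87 and 2.37 in P2rx7-/- controls, 4.37, 2.64 and 2.20 after SE in wt and 2.92, 3.70 and 2.11 after SE in P2rx7-/- mice. miR-2182 lay at 2.20, 1.77 and 1.41 in wt controls, 2.72, 2.36 and 1.53 in P2rx7-/- controls, 3.50, 2.28 and 1.37 after SE in wt and 1.98, 2.67 and 1.52 after SE in P2rx7-/- mice. All 3 were highest in wt post-SE replicate 1, and groups overlapped for miR-2138 and miR-2182, while miR-2135 lay higher in all samples of the P2rx7-/- control and wt post-SE groups than in any wt control.

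Members of middle level varied more between samples. miR-1982.1 lay at 0.14, -0.19 and -2.23 in wt controls, -0.28, 0.02 and -0.78 in P2rx7-/- controls, 0.04, -0.93 and -1.74 after SE in wt and -0.66, -0.72 and -0.82 after SE in P2rx7-/- mice. miR-1964, from the zinc finger gene Zfp84, lay at -0.29, -1.27 and -2.89 in wt controls, -1.02, -2.01 and -0.58 in P2rx7-/- controls, -1.10, -1.32 and -1.42 after SE in wt and -1.29, -0.64 and -3.04 after SE in P2rx7-/- mice. miR-1981, from Mtarc2, a mitochondrial reductase gene, lay at -2.42, -4.04 and -1.12 in wt controls, -1.83, -2.94 and -2.63 in P2rx7-/- controls, -2.46, -3.21 and -3.28 after SE in wt and -3.54, -2.34 and -3.57 after SE in P2rx7-/- mice. For these miRNAs the wt control samples spanned the range of the other groups or nearly so.

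miR-1306 lay at -3.28 and -3.68 in wt control replicates 2 and 3, at -3.57, -3.16 and -3.45 in P2rx7-/- controls, -3.22, -3.43 and -3.48 after SE in wt and -3.20, -3.42 and -3.54 after SE in P2rx7-/- mice. In wt control replicate 1 it lay at 1.58, far above the 11 other samples, which lay between -3.68 and -3.16. miR-1191 lay at -3.12, -2.69 and -2.82 in wt controls, -3.68, -3.49 and -3.54 in P2rx7-/- controls, -3.41, -3.75 and -3.44 after SE in wt and -3.26, -2.80 and -3.24 after SE in P2rx7-/- mice. miR-1930, from the ubiquitin-conjugating enzyme gene Ube2g2, lay at -3.31, -3.35 and -4.59 in wt controls, -3.42, -3.93 and -2.66 in P2rx7-/- controls, -3.63, -3.81 and -3.74 after SE in wt and -3.88, -2.67 and -3.66 after SE in P2rx7-/- mice. The groups overlapped for miR-1930, and for miR-1191 the wt control samples lay above the samples of both P2rx7-/- control and wt post-SE mice.

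The members of low level with the widest spread were miR-1954, miR-1188 and miR-1932. miR-1954 lay at -6.86, -4.08 and -2.91 in wt controls, 7.98, -2.24 and -4.15 in P2rx7-/- controls, -4.03, -4.32 and -5.94 after SE in wt and -3.83, -3.82 and -4.44 after SE in P2rx7-/- mice, the Ct of 11.2 in P2rx7-/- control replicate 1 standing against 21.2 to 25.9 elsewhere. miR-1188 lay at -0.93, -4.29 and 1.35 in wt controls, -3.09, -3.90 and -0.74 in P2rx7-/- controls, -7.36, -5.35 and -4.80 after SE in wt and -2.83, -1.74 and -5.85 after SE in P2rx7-/- mice. For this miRNA the wt post-SE samples were the lowest of the wt mice without overlap.

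miR-1932 lay at -5.03, -7.65 and -8.50 in wt controls, -5.17, -4.90 and -8.76 in P2rx7-/- controls, -3.52, -7.93 and -9.35 after SE in wt and -7.04, -8.56 and -7.57 after SE in P2rx7-/- mice. miR-1949 lay at -4.76, -6.53 and -6.54 in wt controls, -6.08, -6.81 and -7.02 in P2rx7-/- controls, -7.96, -5.64 and -5.84 after SE in wt and -5.48, -5.31 and -4.76 after SE in P2rx7-/- mice. miR-1932 differed by several cycles within 3 of the 4 groups, and miR-1949 was higher in every P2rx7-/- post-SE sample than in any P2rx7-/- control or wt post-SE sample.

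**Figure D3:**
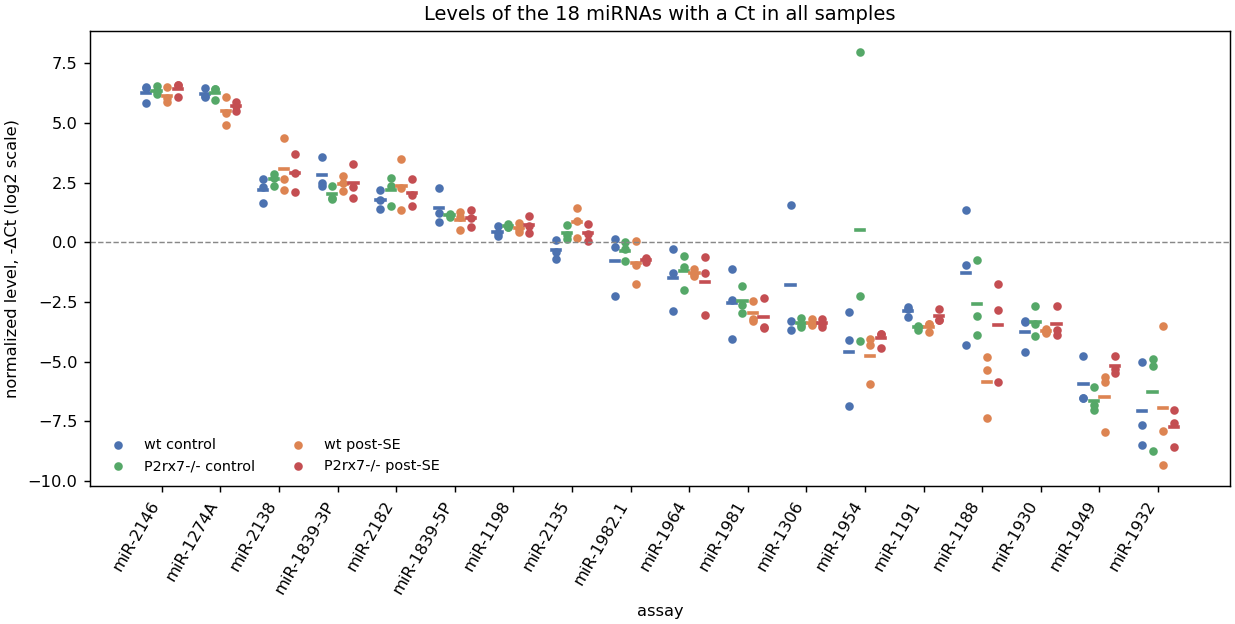
Normalized level (-ΔCt, log2 scale, 0 is the mean of the sample) of the 18 members with a Ct in all samples, ordered by mean level. Points are samples, colored by group, and short lines are group means; miR-2146 and miR-1274A lie at about 6, and single points far from their group belong to miR-1306 (wt control replicate 1) and miR-1954 (P2rx7-/- control replicate 1).

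Between genotypes without seizures, the rule of the methods called 3 of the 18 members up-regulated and 2 down-regulated in P2rx7-/- compared with wt controls. Here and below the FC sets the level in a sample against the mean log2 level of the reference samples, and the rule takes an average FC over the 3 samples above 1.5 as up-regulated and below 0.6 as down-regulated. Of all 335 assays the rule called 21.2% up- and 15.5% down-regulated, and the members’ share of calls, 27.8%, was below the 36.7% of all assays. The split depended on the normalizer: relative to the small nucleolar RNA snoRNA202 it was 2 up- and 6 down-regulated members, relative to the median Ct 4 and 1, and relative to a mean taken over every assay with a Ct in the sample 3 and 4. A normalizer moves every assay alike. Over all 335 the splits were 38 and 142, 83 and 41, and 64 and 64 under these normalizers. With the mean Ct of the 335 assays as normalizer, used throughout, the split was 71 and 52. The snoRNA202 wells gave a Ct in 157 of 192 readings, with a median of 10.3 and a highest of 23.3. This median lies near the lowest listed Ct of 10.004, which limits snoRNA202 as a normalizer here and below. All counts of calls were computed anew from the Ct values. Where the paper gives such counts, they differ from those given here. The up-regulated members were miR-2135, with an average FC of 1.68 ± 0.368 (SD, n = 3), miR-1932 with 2.82 ± 2.21 (5.75 without wt control replicate 1, 1.71 without replicate 3) and miR-1954, whose average of 2067 came from FCs of 6196, 5.20 and 1.38 and was 3.31 without P2rx7-/- control replicate 1 and 955 without wt control replicate 1. These SDs cover the samples compared and leave out the spread of the reference samples, which the standard errors of limma include. miR-2135 fell just below the threshold without wt control replicate 3 (1.48) or P2rx7-/- control replicate 2 (1.47), and relative to snoRNA202 it was 1.09. The down-regulated members were miR-1839-3P with 0.581 ± 0.128 and miR-1306 with 0.333 ± 0.0495. The call for miR-1306 rested on wt control replicate 1, as leaving it out gave 1.08, while leaving out replicate 2 or 3 gave 0.199 and 0.173. The call for miR-1839-3P was also lost without this sample (0.764) and without P2rx7-/- control replicate 1 (0.626) or 2 (0.612). Leaving out wt control replicate 1 raised the number of members tested to 23, of which 10 were up- and 1 down-regulated, against 25.9% of all assays called in either direction. Without wt control replicate 2 it was 5 and 4 of 18 (44.8% of all assays called), and without P2rx7-/- control replicate 3 it was 5 and 3 (33.8%). The miRNA with the lowest p among the members was miR-1191, with a log2 difference of -0.69 (standard error 0.26) and an average FC of 0.620, just above the lower threshold. It did not pass the adjustment (limma, adjusted p = 0.615), nor did any of the 335 assays (0%), of which 20 had an unadjusted p below 0.05.

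After status epilepticus in wt mice, the rule called 4 members up-regulated (23.3% of all assays were) and 2 down-regulated (12.5% were) against the wt controls. The split depended on the normalizer for members and all assays alike. Relative to snoRNA202 it was 1 up- and 11 down-regulated members, with 39 and 164 of all 335 assays. Relative to snoRNA135 it was 3 and 6 members, with 58 and 64 of all assays. With the mean normalizer 78 and 42 of all assays were called. Without wt control replicate 1 it was 5 and 3 of 23 members, where 22.5% of all assays were called. miR-2135 gave FCs of 3.42, 2.37 and 1.41, an average of 2.40 ± 1.01 (SD, n = 3) and a log2 difference of 1.17 with a standard error of 0.39 (limma, adjusted p = 0.664), but relative to snoRNA202 its average was 1.39. miR-2138 averaged 2.28 ± 1.93 and miR-2182 1.80 ± 1.31, both led by wt post-SE replicate 1, without which the averages were 1.18 and 1.08. miR-1932 averaged 4.11 ± 6.48 from FCs of 11.6, 0.549 and 0.204, and without the same sample its average of 0.377 lay below the lower threshold. Among the down-regulated members, miR-1188 gave FCs of 0.0149, 0.0602 and 0.0877. Its wt control samples lay at 1.28, 0.125 and 6.22, and the log2 difference of -4.54 had a standard error of 1.51 (limma, adjusted p = 0.664). Without wt control replicate 3 the average FC of miR-1188 was 0.135 and without replicate 2 it was 0.0192. miR-1306 averaged 0.335 with wt control replicate 1 and 1.06 when that sample was left out. With limma no assay of the 335 passed an adjusted p of 0.05 (0%), and 13, 3 of them members, had an unadjusted p below 0.05.

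In P2rx7-/- mice, status epilepticus was followed by a call for 3 members: 1 up-regulated (17.9% of all assays were) and 2 down-regulated (7.16% were) against the P2rx7-/- controls. Without P2rx7-/- post-SE replicate 2 it was 3 and 5 of 20 members, and the share of all assays called also rose, from 25.1% to 35.6%. As many as 5 members were called without P2rx7-/- control replicate 3 (3 and 2 of 18, with 28.8% of all assays), wt control replicate 1 (2 and 3 of 23, with 26.96%) or wt post-SE replicate 1 (3 and 2 of 20, with 26.1%), where leaving out a sample of other groups admits further members. miR-1949 gave FCs of 2.23, 2.52 and 3.67, an average of 2.80 ± 0.761 (SD, n = 3), with the 3 control samples at 1.47, 0.885 and 0.768. Leaving out each sample in turn kept its average FC between 2.39 and 3.39. Its mean level ranked 326 of the 335, and its highest Ct was 27.2. Under a Ct limit of 26 miR-1949 was therefore not among the members tested. The log2 difference was 1.45 with a standard error of 0.67 (limma, adjusted p = 0.998). miR-1932 averaged 0.401 ± 0.191, but 0.645 without P2rx7-/- control replicate 2 and 0.171 without replicate 3. miR-1954 averaged 0.0431 against a control group that held the sample with a Ct of 11.2, and 0.566 without it, but 0.0165 and 0.00857 without P2rx7-/- control replicate 2 or 3. miR-1839-3P lay at the edge of the upper threshold, with 1.499 ± 0.782. With limma 0% of the assays passed, and 10, none of them a member, had an unadjusted p below 0.05. The paper set P2rx7-/- post-SE mice against wt controls and against wt post-SE mice, so the reference used in this paragraph is not the paper's. With wt controls as reference the rule called 6 members (33.7% of all assays).

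Between genotypes after status epilepticus, the rule called 3 members up-regulated (17% of all assays were) and 0 down-regulated (4.48% were) in P2rx7-/- compared with wt mice. Without wt post-SE replicate 1 it was 6 and 0 of 20 members, with 23.5% of all assays called, against 21.5% with all samples. It was 5 and 0 of 23 without wt control replicate 1 (22.0% of all assays), 2 and 3 of 18 without wt post-SE replicate 3 (27.2%), and 4 and 1 of 18 without P2rx7-/- post-SE replicate 1 (22.9%). miR-1949 gave FCs of 2.00, 2.26 and 3.29, an average of 2.51 ± 0.682 (SD, n = 3), with the wt post-SE samples at 0.359, 1.78 and 1.56. Without wt post-SE replicate 1 its average was 1.48, just under the threshold. The log2 difference of 1.296 had a standard error of 0.67 (limma, adjusted p = 0.999). miR-1188 averaged 8.72 ± 8.10 from FCs of 8.01, 17.1 and 0.992, 4.55 when P2rx7-/- post-SE replicate 2 and 5.01 when wt post-SE replicate 1 was left out. miR-1954 averaged 1.70 ± 0.382, and 1.13 without wt post-SE replicate 3. With limma no assay passed the adjustment (0%), and 4, none of them a member, had an unadjusted p below 0.05. This comparison and the one before share the P2rx7-/- post-SE samples, so that the values of miR-1949 in both are not independent.

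**Figure D4:**
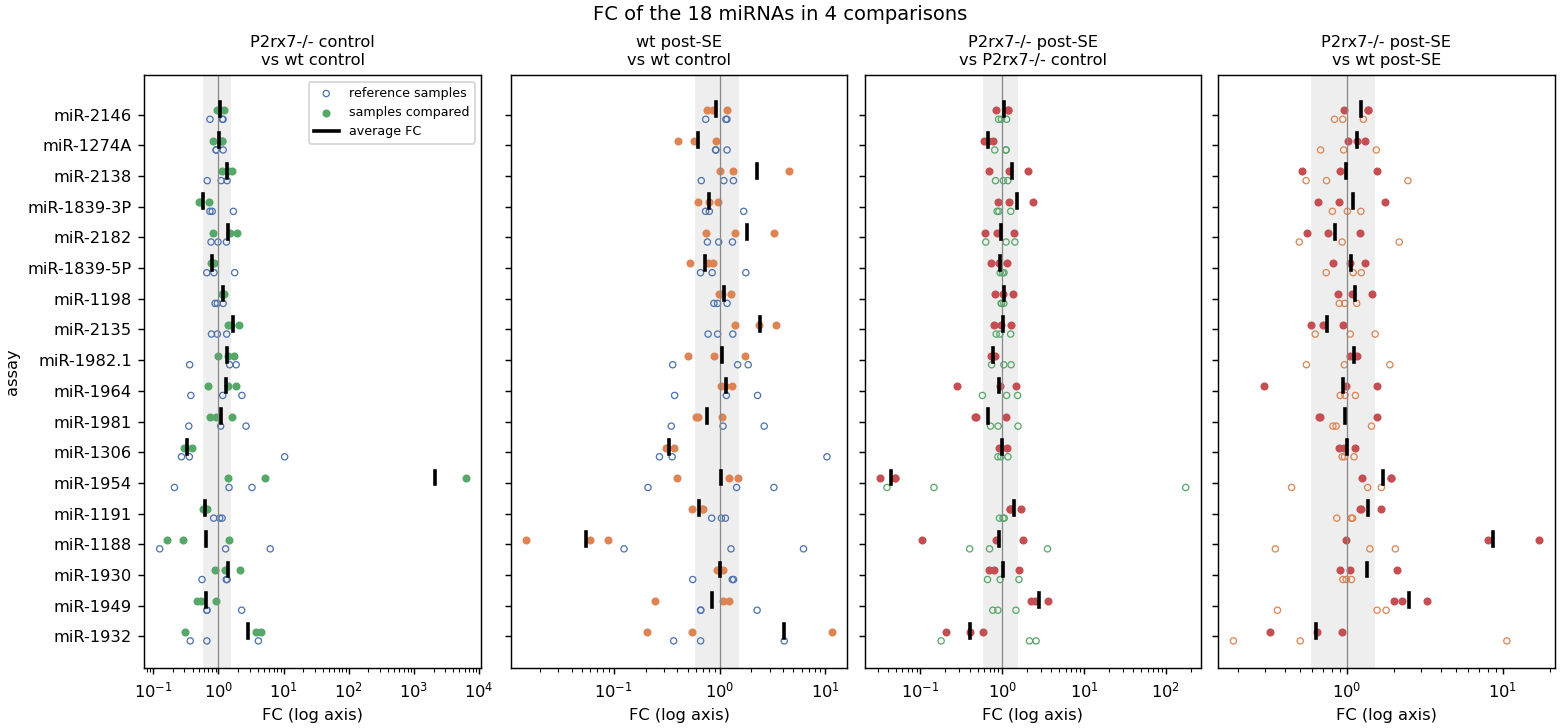
FC of the 18 members in the 4 comparisons, on log axes that differ between panels. Filled points are the samples compared, open points the reference samples, both set against the reference samples, the black mark is the average FC, and the grey band runs from 0.6 to 1.5; most members lie in the band or spread across it, and miR-1949 lies to its right in all 3 P2rx7-/- post-SE samples in both right-hand panels.

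The medians of the members were close to those of all assays. The median log2 difference between the genotypes was 0.16 for the 18 members and -0.02 for all 335 assays in controls, and 0.10 and -0.01 after status epilepticus. For status epilepticus against control it was -0.14 and -0.09 in wt and -0.10 and 0.02 in P2rx7-/- mice. When status epilepticus was averaged over both genotypes, the lowest p among the members belonged to miR-1274A, with a log2 difference of -0.66 (standard error 0.24, limma, adjusted p = 0.829), and it lay lower on average in both genotypes (FC 0.632 and 0.679). miR-1188 followed in the same contrast with -2.72 (standard error 1.07, limma, adjusted p = 0.829). Over the genotypes averaged across treatments, the lowest p among the members was that of miR-1954 (2.94, standard error 1.78, limma, adjusted p = 0.930). In the interaction of genotype and treatment it was that of miR-1191 (1.13, standard error 0.37, limma, adjusted p = 0.851). In each of these 3 contrasts 0% of the assays passed, with 11, 16 and 8 at an unadjusted p below 0.05.

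Finally, the 4 members of the 2100s with a Ct in all samples were compared with each other across the 12 samples, as several were highest in the same sample (6 pairs, permutation p-values two-sided and adjusted over the 6). miR-2138 and miR-2182 correlated with a Pearson r of 0.899 (adjusted permutation p = 0.00042) and a Spearman rho of 0.867 (adjusted permutation p = 0.00384). The r was 0.766 without the 2 samples farthest from the median of miR-2138, 0.901 without wt control replicate 1, 0.805 without wt post-SE replicate 1 and 0.917 for deviations from the group means. miR-2135 and miR-2138 gave an r of 0.818 (adjusted permutation p = 0.00378) and a rho of 0.727 (adjusted permutation p = 0.0287), and the r was 0.512 without the 2 farthest samples, 0.875 without wt control replicate 1, 0.688 without wt post-SE replicate 1 and 0.830 within groups. For miR-2135 and miR-2182 the r was 0.709 (adjusted permutation p = 0.0194) and the rho 0.615 (adjusted permutation p = 0.0743), so that the rank correlation did not pass the adjustment. The r of this pair was 0.369 without the 2 farthest samples, wt post-SE replicate 1 and wt control replicate 3, 0.789 without wt control replicate 1, 0.506 without wt post-SE replicate 1 and 0.739 within groups. miR-2146, the most abundant of the 4, gave r values of 0.201 to 0.322 with the other 3, none with an adjusted permutation p below 0.05. The pairs were looked at after their values were seen, so the p-values describe them and are no independent test. The permutations shuffled all 12 samples without regard to group, so differences between groups also enter these p-values. For deviations from the group means only r was computed. Correlations of other pairs of assays were not computed, and all levels share the normalizer of the sample. None of the 4 had an entry in the RefSeq annotation, so their sequences could not be compared.

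**Figure D5:**
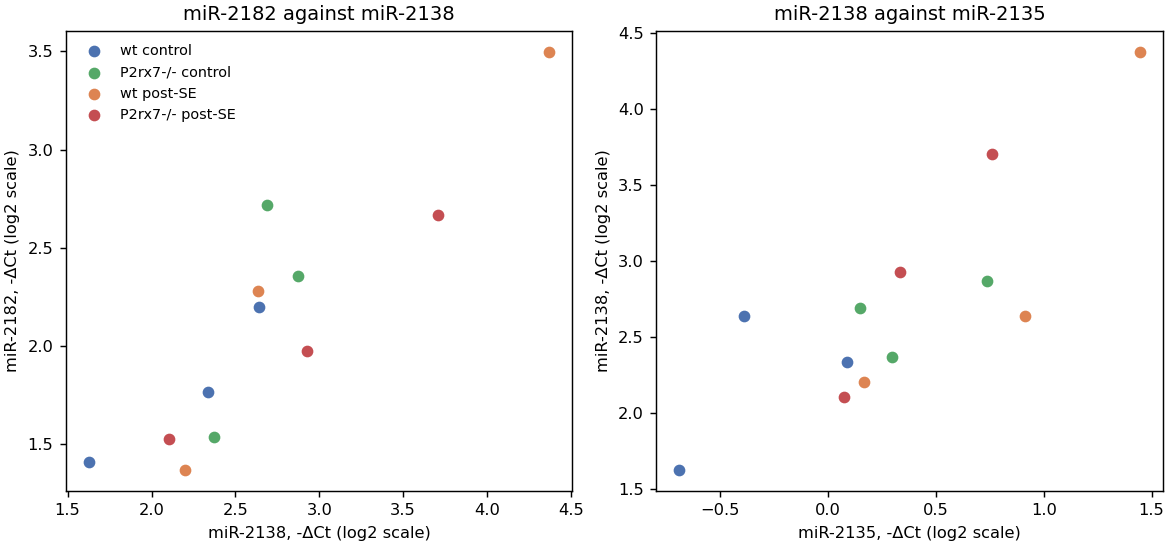
Normalized levels (-ΔCt, log2 scale) of miR-2182 against miR-2138 (left) and of miR-2138 against miR-2135 (right) in the 12 samples, colored by group. The levels rise together across groups in the left panel (r of 0.899), and the point at the upper right in both panels is wt post-SE replicate 1.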

How the data were processed

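Hippocampal small RNA of 12 samples (4 groups of 3) was measured by TaqMan OpenArray. In the table that the authors deposited, Ct values without normalization stand in 653 assay lines between 10.004 and 27.999, and a well without a Ct is empty; the software behind the Ct calls is not given in the sources used here. They also deposited a table of fold changes (ratios per assay and sample), which was not used. 0 columns were left without a sample, and each sample is a separate pool by the labels, so that p-values measure the spread between pools. Following the methods, 335 miRNA assays with a Ct below 28 in all samples were analyzed, the mean Ct over them was subtracted per sample (ΔCt), and FCs were computed as 2 to the power of -ΔΔCt against the average of the reference group. limma 3.58.1 (R 4.3.3, lmFit and eBayes) was fitted to -ΔCt over all 12 samples with 1 coefficient per group, with Benjamini-Hochberg adjustment over the 335 assays and a threshold of 0.05. The threshold rule and the fit were run on simulated data with independent normal noise of each assay's spread within groups. The simulation had no shifted single readings like that of miR-1954, and it does not speak for them. Other values were computed with Python 3.11.15, pandas 2.3.3 and scipy 1.17.1. Sequences came from RefSeq tables (GRCm38.p6). Named were all members with a Ct in all samples, those in 11 and those in 1 or 2 samples, and pairs from 1 hairpin. miR-1937C, miR-1938, miR-1961 and miR-1968 were also named, chosen after their values were seen. The members, lists and tests were chosen with earlier results of these data known. Alternatives were other normalizers, Ct cut-offs, averaging, left-out samples and a replicate block.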

Additional observations from a re-analysis of the deposited data

Results flagged for a closer look

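miR-1191 was flagged because its average FC after status epilepticus lay below 1 in wt and above 1 in P2rx7-/- mice. The samples were not treated as pairs, and each was set against the mean of its control group. The average FC of wt post-SE relative to wt control samples was 0.638, with all 3 samples below 1 (0.692, 0.547 and 0.676), and that of P2rx7-/- post-SE relative to P2rx7-/- control samples was 1.40, with all 3 samples above 1 (1.24, 1.70 and 1.26). With all samples and the mean normalizer neither average passed the thresholds of 0.6 and 1.5, but the wt average was below 0.6 without wt control replicate 1 (0.575) and relative to snoRNA202 (0.392) or snoRNA135 (0.521). The interaction of genotype and treatment was 1.13 on the log2 scale (standard error 0.37, unadjusted p = 0.0126 with limma) and did not pass the adjustment over all assays (limma, adjusted p = 0.851). With each sample left out in turn it lay between 0.97 and 1.23, and under the other alternatives between 1.03 and 1.95, the highest relative to snoRNA202 (limma, adjusted p = 0.376). The adjusted p over all alternatives ran from 0.376 to 0.983. Of the 335 assays, 8 (2.39%) had an unadjusted p below 0.05 with limma in this interaction. As miR-1191 was picked from these same values, its p is no independent test of the difference.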

How the results depend on the processing

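The number of members called by the FC rule depended on the processing, and no member passed limma under any alternative tried. Relative to snoRNA202, whose median Ct of 10.3 lay near the lowest listed Ct, 8 members were called between the control groups (5 with the mean normalizer). After SE in wt mice it was 12 (6 with the mean normalizer). Of all assays, 53.7% and 60.6% were called relative to snoRNA202. The median of all 335 assays moved by -0.64 and -0.72 on the log2 scale. Relative to snoRNA135, 5 were called between the genotypes after SE (35.8% of all assays), against 3 with the mean normalizer. Asking for a Ct in only 2 samples of each group admitted 34 members and called 16 and 15 in those control and wt comparisons (40.8% and 39.5% of all assays), 13 in P2rx7-/- mice after SE against their controls (31.8%) and 12 between the genotypes after SE (28.03%). A Ct limit of 26 left 1 and 1 in the latter comparisons (22.0% and 19.5% of all assays). With the limit of 28 it was 3 and 3. With a further condition of p below 0.05 in the methods' two-group test, 0, 0, 1 (miR-1949) and 0 members passed (2.09%, 1.79%, 0.896% and 0.597% of all assays). With wt controls as reference for the P2rx7-/- post-SE samples 6 were called (33.7% of all assays). Leaving out each sample in turn gave 5 to 11, 6 to 8, 3 to 8 and 3 to 6 calls in the 4 comparisons, and 18 to 23 members with a Ct in all samples left. miR-1306 ranged from 0.173 to 1.08 between the control groups and from 0.174 to 1.06 after SE in wt mice, and miR-1932 from 0.377 to 7.96 in the latter, turning direction without wt control replicate 1 for miR-1306 and without wt post-SE replicate 1 for miR-1932. The cause was not tested, beyond the fewer or additional samples and assays in each setting. Of 1420 average FCs recomputed over the 18 members, the 4 comparisons and the alternatives, 92 moved by at least the SD over samples and 3 values that had been called up- or down-regulated turned direction. Counting uncalled values too, 123 lay on the other side of an FC of 1. The SD used here is that of the FCs compared, so a value with a wide spread can change much without counting as moved. Between the control groups miR-1954 fell from 2067 to 3.31 without P2rx7-/- control replicate 1 and was not counted. The 1420 also include settings that leave out a sample of a group outside the comparison. The count of 92 is therefore no measure of how stable the FCs are.

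Deviations of samples with the same replicate number correlated at -0.227 to 0.277 over 18 pairs, 4 of them above 0.1. For replicate 3, the P2rx7-/- control sample gave 0.277 with the wt sample taken after SE. It gave 0.271 with the P2rx7-/- sample taken after SE, and those post-SE samples gave 0.251 with each other. With wt control replicate 3 the values were 0.0654, 0.0942 and -0.0342. Correlations this weak cannot decide whether the numbers pair samples, and a shared run was not tested. With the replicate block, 0 members were called by limma in the 7 contrasts. The number of samples and the single reading of each member in a sample limit the precision.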
